A study of Mus musculus with 8 samples.

Results

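The 10 genes described here encode DNA-binding regulators of lymphocyte development: the Ikaros family factors Ikzf1, Ikzf2 and Ikzf3, the zinc finger factors Bcl11a and Bcl11b, the Ets family factors Ets1, Ets2, Elf1 and Fli1, and the zinc finger repressor Gfi1. They were read by all probe sets of the Mouse 430 2.0 array whose only gene symbol in the platform annotation is one of these names. There were 31 such probe sets among 45037 that are not array controls. Of these, 21 probe sets of 9 genes were bright enough to be tested, and the 10 others included all 7 probe sets of Bcl11a.

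Ikaros family proteins bind DNA through N-terminal zinc fingers, pair with one another through C-terminal fingers and recruit the NuRD chromatin remodelling and deacetylase complex. Bcl11b is needed for T-cell commitment and for normal double-positive thymocytes, whereas its relative Bcl11a acts in early progenitors, B cells and dendritic cells. Ets family proteins share the Ets DNA-binding domain, which reads a GGAA core; Ets1 works together with Runx factors at T-cell receptor genes. Gfi1 represses genes through the demethylase Kdm1a and its CoREST partners and is required for normal numbers of early thymocytes.

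The arrays compare double-positive thymocytes, immature T cells with CD4 as well as CD8 on their surface, with and without c-Myb, before positive selection. RNA was hybridised to 8 arrays, each with cells of 1 mouse aged 4 to 5 weeks: 4 arrays labelled c-Myb deficient and 4 labelled c-Myb sufficient. All mice were Tcra-/-, so they make no alpha-beta T-cell receptor, and carried Cd4-Cre, a recombinase driven from Cd4 sequences that acts in T-lineage cells; the cells were taken over columns that retain CD4-bearing cells. The source names give Mybf/w Cd4-Cre Tcra-/- for the deficient arrays and Mybf/f Cd4-Cre Tcra-/- for the sufficient arrays, which runs against the titles and the genotype field, so each direction given here follows the labels and would turn round if the source names were right. Values are signals, the linear intensity of a probe set; each difference is deficient minus sufficient on log2(signal + 16), with its standard error (SE), and was tested with limma over 22599 probe sets at an adjusted p under 0.05. Signals of different probe sets are not compared with one another.

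Several measures of the whole arrays moved with the groups or set 1 array apart. Myb was bright on all 8 arrays: its 3 probe sets differed by 0.04 to 0.36, and 1 of them, 1422734_a_at, was called higher on deficient arrays (adjusted p = 0.0327), so the array did not show a loss of Myb transcript under the labels. Whether these probe sets lie in the part of Myb that Cre removes was not examined. Xist, the RNA of the inactive X chromosome, read 4129 to 5736 on the 4 deficient arrays and 4358.5 in sufficient replicate 1, against 23.4 to 36.7 in the other 3 sufficient arrays. One 18S ribosomal RNA control read 7142.7 in deficient replicate 4 and 676.1 to 1459.4 on the other 7 arrays. Deficient replicate 4 held the lowest of the 4 deficient signals for 9 of the 21 tested probe sets. For others it held the highest, among them Gfi1 1417679_at (1012.8), Elf1 1417540_at (1858.3) and Ets1 1422028_a_at (732.5) and 1426725_s_at (4828.9). All 10 double-positive markers with a usable probe set were bright; Rag2 and Arpp21 fell, and the summed signals ran from 60027 to 63128 on deficient and from 63785 to 67673 on sufficient arrays. Of 5 tested mature single-positive markers 2 rose (Ccr7 and Klf2) and 1 fell (H2-Q2), with sums of 7879 to 9894 on deficient and 4602 to 7184 on sufficient arrays. Il2ra was the 1 riser of 6 tested double-negative markers (sums of 965 to 1702 against 354 to 587) and, with Tnfrsf18, 1 of 2 risers among 4 tested regulatory T-cell markers (1433 to 2241 against 671.5 to 889), where the defining gene Foxp3 stayed under the dim limit on all 8 arrays. None of the 2 B-cell (sums 7670 to 8608 against 7145 to 7377, with Cd79a and Ebf1 dim throughout), 2 NK-cell (150 to 285 against 56.3 to 211, with Ncr1 dim), 8 macrophage and dendritic (1093 to 1592 against 739 to 1928, with Siglech dim) or 3 stromal markers tested (555 to 806 against 802 to 863, with Pdgfra, Col1a1 and Foxn1 dim) passed in limma, where 1, 1, 0 and 2 of them had an unadjusted p under 0.05. No erythroid marker was bright enough to test (sums 75.4 to 90.3 against 55.7 to 146, with Hba-a1 and Klf1 dim). Each sum adds linear signals and so follows its brightest genes. On deficient arrays Cd52 read 6039 to 8062 of the mature single-positive sum, Ighm 7106 to 8078 of the B-cell sum and Pecam1 387 to 647 of the stromal sum. None of these genes passed in limma at an adjusted p under 0.05. Their groups were apart, with unadjusted limma p of 0.0068 for Cd52, 0.0089 for Ighm and 0.032 for Pecam1. Cd52 and Ighm were higher and Pecam1 lower on deficient arrays. Whether a shift of a sum goes with a shift of the cell type was not tested. The part of these array and marker differences in the results below was not tested. In RNA of a cell mixture, fewer cells of a type and less RNA per cell cannot be told apart.

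Among the 10 factors, Gfi1, Ets1 and Elf1 were lower on the arrays labelled deficient and no factor was higher. Gfi1 stood at 43.8% of its sufficient level by the fitted difference, Ets1 at 60.4% to 81.5% over its 4 probe sets and Elf1 at 69.8% on 1 of 2. Of the 21 tested probe sets 5 fell (3 of Ets1, 1 of Elf1 and the 1 of Gfi1) and 16 did not pass. Over all tested probe sets 2.68% were called lower and 3.14% higher, 5.82% in all. By gene, 3 of the 9 tested had at least 1 lower probe set, against 3.94% of all tested genes. That count favours genes with several probe sets. In a fit on the brightest probe set of each gene alone, 2 of the 9 (Gfi1 and Elf1) were called lower, against 4.08% of all genes. Ets1, read in that fit by 1452163_at, did not pass (adjusted p = 0.104). The 5 falls make 23.8% of the 21, but the 3 Ets1 probe sets read 1 gene and are not independent. None of the 21 was called higher in limma, and 0 had an unadjusted p under 0.05 in that direction. For 6 of the 21 probe sets the deficient arrays all lay below the sufficient ones, and for 0 all above, against 14.3% of all tested probe sets in either direction and 7% in the lower one. The median difference was -0.08 over the 21 probe sets and 0.01 over all tested. The count of falls changed with single arrays: it was 3 without deficient replicate 1 or 3 and without sufficient replicate 1, 2 or 4, 2 without deficient replicate 2 or sufficient replicate 3, and 6 without deficient replicate 4. A model that holds the Xist level sets the deficient arrays against sufficient replicate 1 alone, and it called 0 of the 21 and 8 of all 22599 probe sets in limma. In that model the 5 lower probe sets kept negative differences: -1.02 for Gfi1, -0.35 for Elf1, and -0.70, -0.44 and -0.44 for the 3 of Ets1, which read 1 gene.

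**Figure D1:**
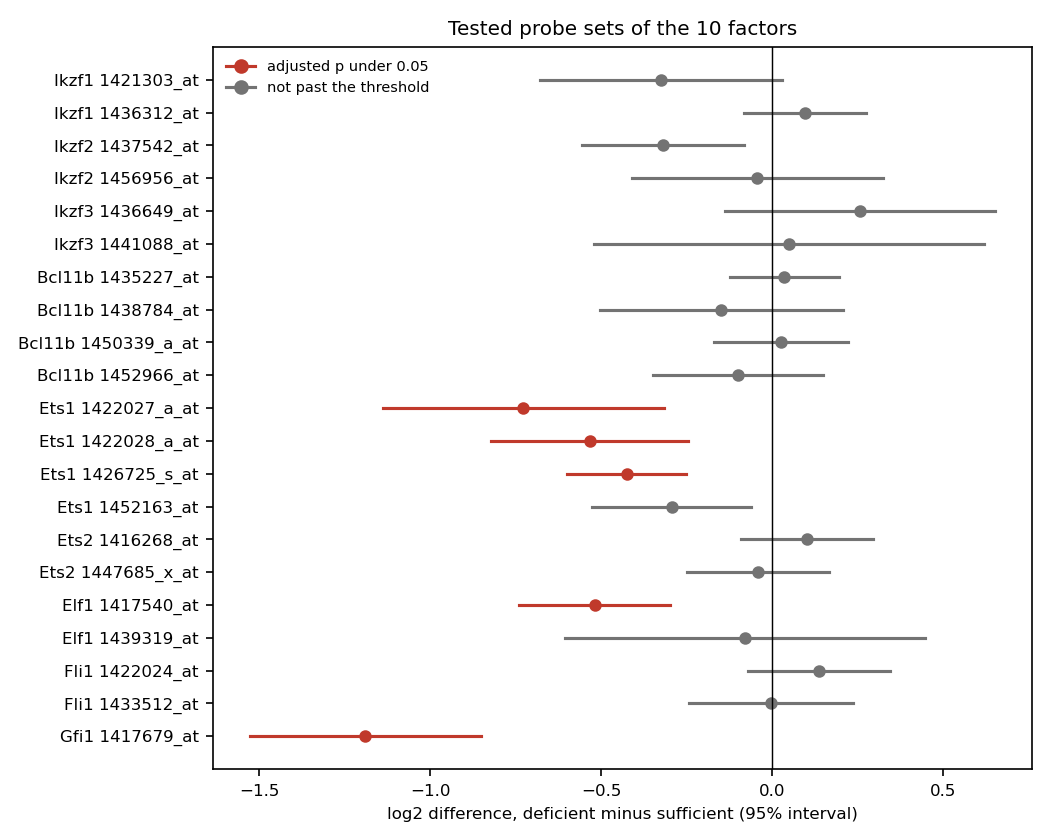
Log2 difference, deficient minus sufficient, of the 21 tested probe sets (y axis) with 95% intervals from limma (x axis, log2 units); red marks an adjusted p under 0.05. The 5 red intervals, of Gfi1, Ets1 and Elf1, lie below 0, and those of Bcl11b, Ets2 and Fli1 span it.

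**Figure D2:**
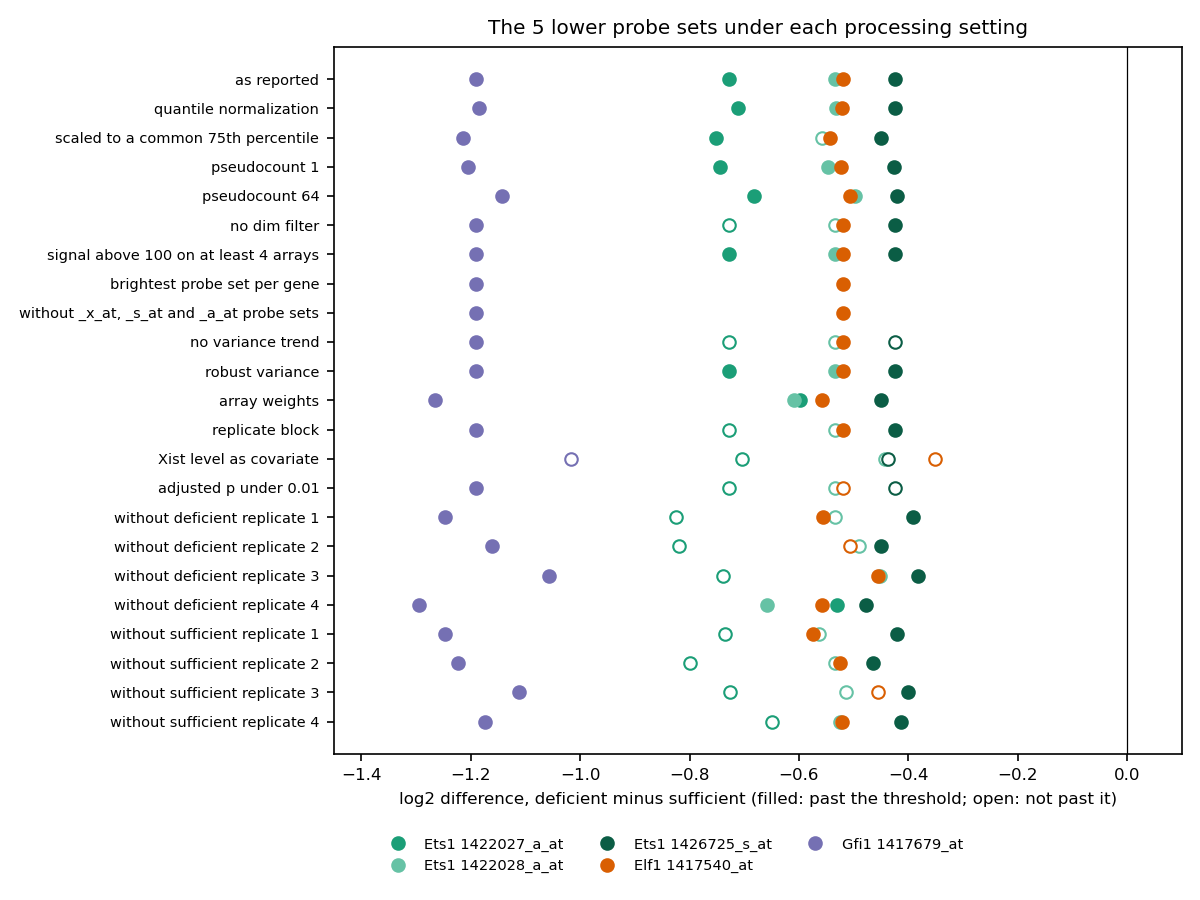
Log2 difference, deficient minus sufficient (x axis), of the 5 lower probe sets under each way of processing the data (y axis), filled where the adjusted p passed the threshold and open where it did not. Every point lies below 0; the Gfi1 points are filled except with the Xist level in the model, while those of Ets1 1422027_a_at and 1422028_a_at are open in 7 of the 8 fits that leave out 1 array.

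Gfi1 was the factor that fell most. Its single probe set 1417679_at read 916.6, 763.7, 611.3 and 1012.8 on deficient arrays, against 1659.0, 1740.3, 2198.9 and 1932.0 on sufficient arrays. The groups did not overlap, and sufficient replicate 1, the sufficient array with high Xist, was the lowest of its group yet above all 4 deficient arrays. The means were 826 ± 176 on deficient and 1883 ± 240 on sufficient arrays (SD, n = 4 each), a log2 difference of -1.19 ± 0.15 (SE, adjusted p = 0.0018). Leaving out any single array kept the call, with differences of -1.29 to -1.06 and adjusted p of 0.0016 to 0.0102. A model that also holds the Xist level gave -1.02 and lost the call (adjusted p = 0.213).

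RefSeq lists 2 transcription starts for Gfi1 and 2 for Elf1, and their promoter windows (GRCm38.p6, 250 bases before to 50 after the start, 5′ to 3′ on the gene's strand) are shown because these genes fell on arrays labelled for loss of a DNA-binding factor. Capitals mark the core letters read by Myb proteins (AACNG) and a longer Ets core (CCGGAA), searched on both strands; no match of one motif overlapped one of the other.
Gfi1 upstream start, chr5:107725756-107726055, minus strand: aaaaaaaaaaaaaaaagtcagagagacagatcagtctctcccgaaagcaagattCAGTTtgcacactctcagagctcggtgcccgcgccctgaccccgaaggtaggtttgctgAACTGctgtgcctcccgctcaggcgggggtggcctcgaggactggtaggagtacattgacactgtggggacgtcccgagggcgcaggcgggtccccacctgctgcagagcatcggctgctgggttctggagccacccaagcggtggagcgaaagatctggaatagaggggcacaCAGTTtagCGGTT
Gfi1 downstream start, chr5:107724294-107724593, minus strand: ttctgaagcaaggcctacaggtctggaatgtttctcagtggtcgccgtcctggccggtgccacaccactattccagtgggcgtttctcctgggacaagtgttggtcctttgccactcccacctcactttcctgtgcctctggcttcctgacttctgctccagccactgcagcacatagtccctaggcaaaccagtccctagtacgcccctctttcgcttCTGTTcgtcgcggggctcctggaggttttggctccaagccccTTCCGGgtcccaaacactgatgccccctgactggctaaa
Elf1 upstream start, chr14:79480944-79481243, plus strand: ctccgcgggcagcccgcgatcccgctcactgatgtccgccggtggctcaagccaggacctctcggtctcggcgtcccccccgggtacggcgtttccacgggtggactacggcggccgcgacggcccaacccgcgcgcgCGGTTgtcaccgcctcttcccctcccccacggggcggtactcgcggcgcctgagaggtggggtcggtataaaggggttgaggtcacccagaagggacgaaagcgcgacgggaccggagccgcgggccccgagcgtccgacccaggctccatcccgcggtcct
Elf1 downstream start, chr14:79515424-79515723, plus strand: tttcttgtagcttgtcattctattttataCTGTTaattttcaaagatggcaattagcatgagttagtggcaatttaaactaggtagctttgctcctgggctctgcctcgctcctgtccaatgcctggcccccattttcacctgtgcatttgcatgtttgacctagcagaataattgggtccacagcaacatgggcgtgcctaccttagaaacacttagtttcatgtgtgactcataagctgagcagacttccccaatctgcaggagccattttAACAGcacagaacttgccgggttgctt
The Gfi1 windows held 4 and 1 matches to AACNG, in the order printed, and the downstream one held 1 match to CCGGAA. The Elf1 windows held 1 and 2 matches to AACNG and 0 to CCGGAA. Of all 32851 promoter windows of the same length, 80.3% held AACNG, with a median of 2 matches, and 14.9% held CCGGAA. Windows were at hand for 6 of the 10 factors; of those not called, Bcl11b held 3 AACNG matches, Ets2 2, Ikzf1 0 and 2 at its 2 starts, and Bcl11a 0. A match is a description of the letters and not a binding site, and the start used in these cells is not given by the arrays.

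**Figure D3:**
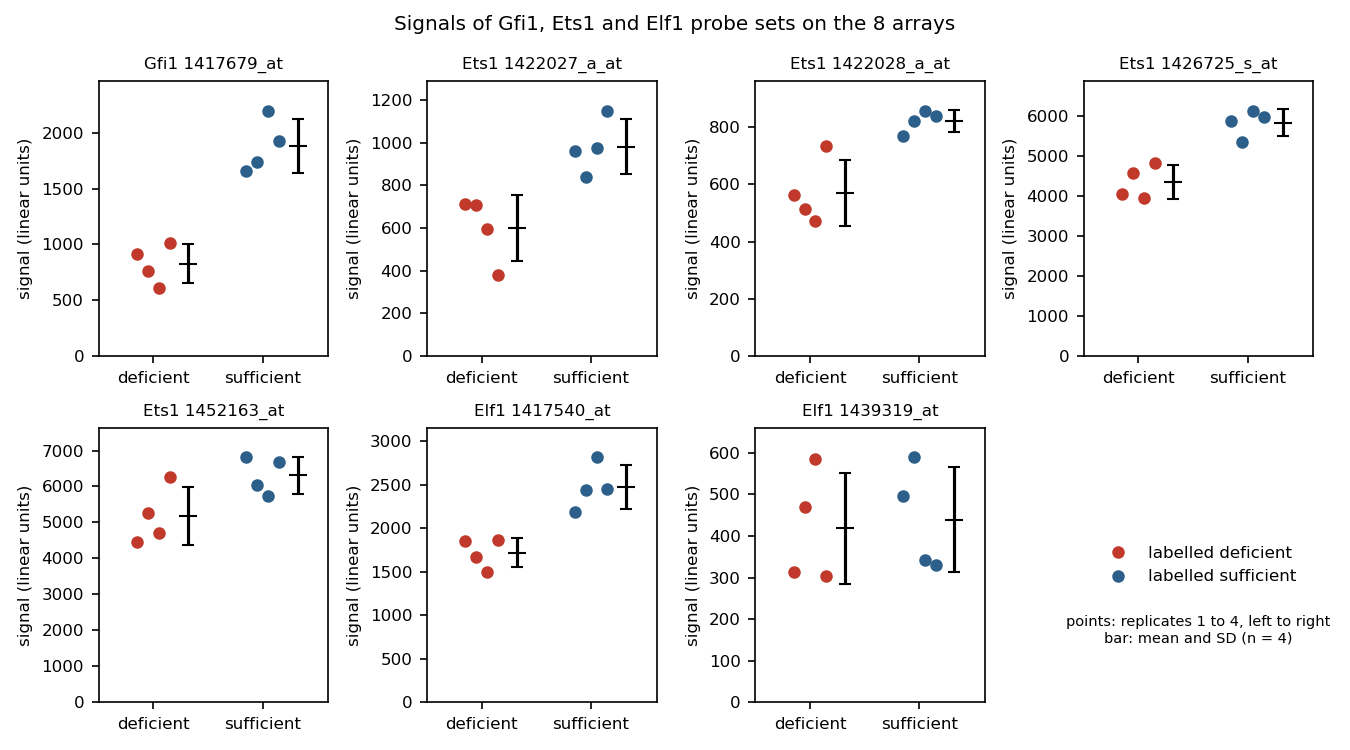
Signal (y axis, linear units, from 0) of each Gfi1, Ets1 and Elf1 probe set in replicates 1 to 4 of the deficient (red, left) and sufficient (blue, right) groups, with group mean and SD in black. The groups are apart for Gfi1, for Ets1 1422027_a_at, 1422028_a_at and 1426725_s_at and for Elf1 1417540_at, and overlap for Ets1 1452163_at and Elf1 1439319_at.

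Ets1, the Ets factor best known for its role in T and NK cells, had a negative difference on each of its 4 probe sets, 3 of which passed the test. The annotation ties the probe sets to 2 sequence records: 1426725_s_at and 1452163_at share one, and 1422027_a_at and 1422028_a_at the other. Whether the probe sets of a pair read the same stretch of that record was not examined. Probe set 1426725_s_at read 4048.2, 4564.3, 3960.7 and 4828.9 on deficient arrays, against 5879.2, 5359.2, 6127.8 and 5972.6 on sufficient arrays. The groups were apart, with sufficient replicate 2 nearest to the deficient arrays. The log2 difference was -0.43 ± 0.08 (SE, adjusted p = 0.0114), and it kept its call without any single array (adjusted p up to 0.0493). Without a variance trend in limma the call was lost (adjusted p = 0.0567). Probe set 1452163_at, tied to the same sequence record, read 4465.0, 5267.8, 4700.6 and 6275.9 on deficient and 6808.5, 6043.5, 5724.5 and 6679.8 on sufficient arrays. Here deficient replicate 4 lay among the sufficient arrays, and the difference of -0.29 did not pass (adjusted p = 0.137). Without deficient replicate 4 it was -0.39 and passed (adjusted p = 0.0252).

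The other pair of Ets1 probe sets differed by more on the log2 scale but with more spread. Probe set 1422027_a_at read 714.1, 706.9, 595.9 and 380.2 on deficient and 958.5, 838.4, 977.2 and 1148.8 on sufficient arrays (log2 -0.73 ± 0.19, SE, adjusted p = 0.0466). Probe set 1422028_a_at read 562.5, 512.7, 472.7 and 732.5 on deficient and 770.4, 822.2, 857.0 and 838.1 on sufficient arrays (log2 -0.53 ± 0.13, SE, adjusted p = 0.0393). Deficient replicate 4 was the lowest array by the first and the highest deficient array by the second. Both are tied to the same sequence record. Each of these 2 calls was lost in 7 of the 8 fits that left out 1 array, with adjusted p up to 0.124 and 0.123, and held without deficient replicate 4. With the replicate number as a block they had adjusted p of 0.0823 and 0.0531.

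Elf1, an Ets factor found throughout the lymphoid lineages, fell on 1 of its 2 probe sets. Probe set 1417540_at read 1851.4, 1671.4, 1497.9 and 1858.3 on deficient and 2190.0, 2434.1, 2811.4 and 2451.8 on sufficient arrays. The groups did not overlap, and sufficient replicate 1 was again the sufficient array nearest to the deficient ones. The difference was -0.52 ± 0.10 (SE, adjusted p = 0.0139). The call was lost without deficient replicate 2 (adjusted p = 0.0517) and without sufficient replicate 3 (adjusted p = 0.0516). Probe set 1439319_at read 313.8, 469.5, 584.3 and 304.8 on deficient and 496.4, 588.6, 342.7 and 329.8 on sufficient arrays, so the groups overlapped. Its difference was -0.08, with a 95% interval of -0.61 to 0.45 that also holds the value of the other probe set.

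Ets2 and Fli1, the other Ets members, did not pass. Ets2, a target of Ras signalling, had a brightest probe set, 1416268_at, that read 8271.4, 8369.1, 7442.7 and 8844.4 on deficient and 8579.4, 8263.9, 7355.8 and 6606.8 on sufficient arrays. The groups overlapped, and the difference of 0.10 had a 95% interval of -0.09 to 0.29 (adjusted p = 0.572). Probe set 1447685_x_at of Ets2 differed by -0.04 (-0.25 to 0.17), and 1437809_x_at was too dim to test. Fli1, which acts in blood stem cells, megakaryocytes and lymphocytes, read 1054.9, 1058.8, 1061.0 and 875.3 on deficient and 941.0, 972.4, 888.9 and 869.2 on sufficient arrays by 1422024_at. Deficient replicate 4 stood apart from the 3 other deficient arrays, and the difference was 0.14 (-0.07 to 0.34, adjusted p = 0.462). Its second probe set, 1433512_at, differed by -0.003 (-0.24 to 0.24).

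Ets1 and Fli1 are neighbours on chromosome 9, with 0 protein-coding genes between them in the RefSeq table. To compare genes of one family within the same arrays, the log2 signals of each gene's tested probe sets were averaged per array, and the change of one gene was set against that of another in all 9 pairs of the Ets and Ikaros families. These pairs were added after the values had been seen. The change of Ets1 was 0.56 lower than that of Fli1 and 0.52 lower than that of Ets2, on the log2 scale. The change of Elf1 was 0.37 lower than that of Fli1 and 0.33 lower than that of Ets2. In each of these 4 pairs the deficient and sufficient arrays did not overlap, which gives p = 0.0286 in an exact permutation test (two-sided), its lowest possible value with 70 labellings. After Benjamini-Hochberg adjustment over the 9 pairs their exact permutation p was 0.0643, which does not pass at 0.05. These 4 pairs already stood at the lowest possible p of 0.0286, and that value was too high to pass after adjustment over the 9 pairs. The adjusted test therefore cannot decide whether the family members differ. Ets1 and Elf1 differed from each other by -0.20 (exact permutation p = 0.286, adjusted p = 0.367), and Ets2 and Fli1 by -0.04 (exact permutation p = 0.743).

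The Ikaros family showed no called change. Ikzf1, which encodes Ikaros, read 6823.1, 5990.0, 5277.8 and 5625.2 on deficient and 5632.4, 5822.6, 5383.9 and 5257.3 on sufficient arrays by its brighter probe set 1436312_at. The groups overlapped, and the difference was 0.10 with a 95% interval of -0.08 to 0.28 (adjusted p = 0.556). The other Ikzf1 probe set, 1421303_at, ran the other way, with 1069.1, 936.2, 1002.0 and 617.6 on deficient and 1094.6, 1056.5, 1031.9 and 1300.1 on sufficient arrays (-0.33, interval -0.68 to 0.03, adjusted p = 0.284). Deficient replicate 4 was the lowest of the 8 arrays by this probe set.

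Ikzf2, which encodes Helios and is prominent in regulatory T cells and in thymocytes under strong receptor signals, read 493.3, 435.8, 496.8 and 519.2 on deficient and 565.1, 634.9, 691.4 and 557.8 on sufficient arrays by 1437542_at. The groups did not overlap, yet the difference of -0.32 ± 0.11 (SE) did not pass over the whole table (adjusted p = 0.116). With array weights it was -0.39 and passed (adjusted p = 0.0361). Probe set 1456956_at of the same gene differed by -0.04 (-0.41 to 0.32), and 1421643_at was under the dim limit of 33.8 on all 8 arrays. Ikzf3, which encodes Aiolos and appears in later lymphocyte stages, read 732.0, 818.7, 1140.7 and 577.9 on deficient and 697.8, 739.7, 579.4 and 639.8 on sufficient arrays by 1436649_at. Deficient replicate 3 was the highest and deficient replicate 4 the lowest of the 8, so the deficient arrays spanned the sufficient ones. The difference was 0.26 (-0.14 to 0.65, adjusted p = 0.465), and that of 1441088_at was 0.05 (-0.52 to 0.62). In the 3 pairs of Ikaros family genes the changes differed by -0.33 to 0.07, with exact permutation p of 0.229 to 0.514.

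Bcl11b was bright on all 8 arrays by all 4 of its probe sets, and none of them passed. Probe set 1435227_at read 6421.2, 6427.0, 6507.1 and 6631.6 on deficient and 6254.5, 7125.7, 6472.3 and 5602.0 on sufficient arrays. The deficient arrays lay inside the range of the sufficient ones, and the difference was 0.03 with a 95% interval of -0.13 to 0.20 (adjusted p = 0.833). Probe sets 1450339_a_at and 1452966_at differed by 0.02 (-0.17 to 0.22) and -0.10 (-0.35 to 0.15). Probe set 1438784_at differed by -0.15 (-0.50 to 0.21), with deficient replicate 4 at 1502.5 and the other deficient arrays at 2308 to 2394. Over the 4 probe sets the intervals reached no lower than -0.50 and no higher than 0.22. Bcl11a was near the floor of the arrays: of its 56 signals, 2 passed the dim limit, 40.0 by 1419406_a_at in deficient replicate 3 and 47.0 by 1447335_x_at in sufficient replicate 1. No difference of Bcl11a could be measured at this signal.

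**Figure D4:**
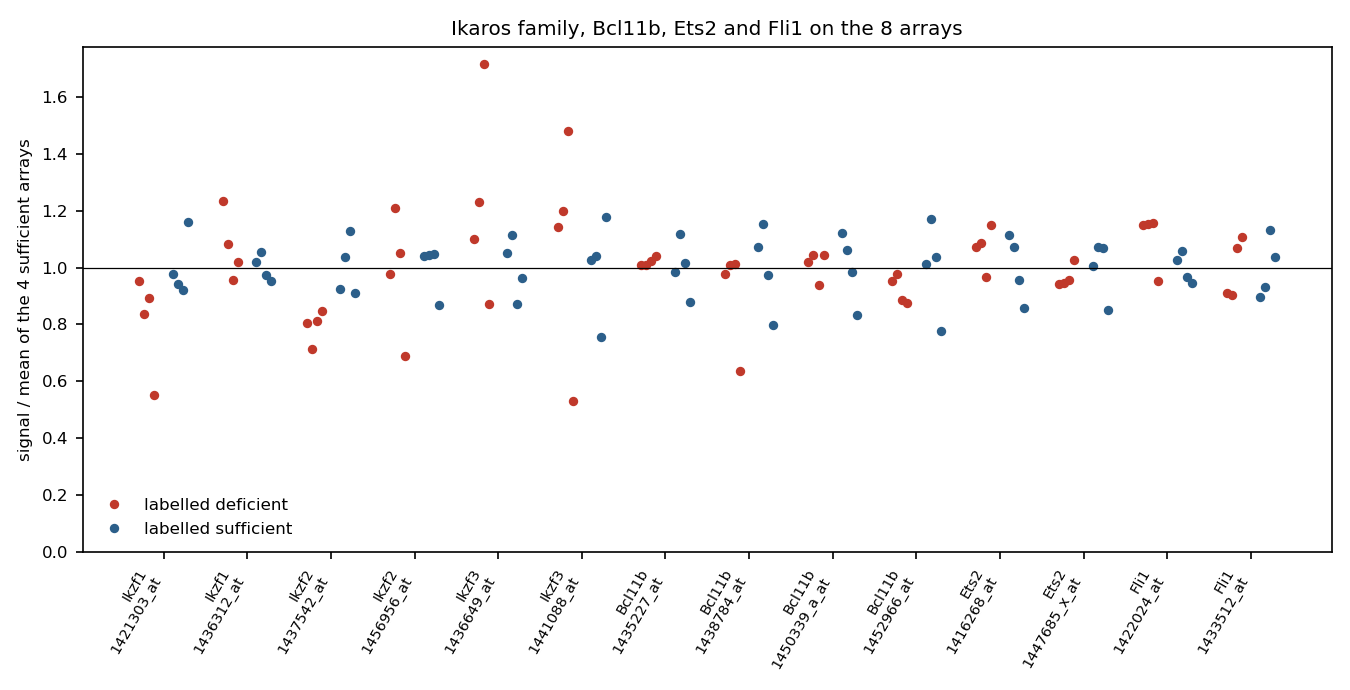
Signals of the tested Ikaros family, Bcl11b, Ets2 and Fli1 probe sets, each divided by the mean of its 4 sufficient arrays (y axis, from 0), for replicates 1 to 4 of the deficient (red, left) and sufficient (blue, right) groups. Red and blue points overlap for every probe set shown except Ikzf2 1437542_at. Deficient replicate 4 (last red point) is low for several and the highest red point for others, such as Ikzf2 1437542_at and both Ets2 probe sets.

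The genes with a profile most like that of each fallen factor were sought among the brightest probe sets of all other genes, by the root mean square difference of mean-centred log2 signals over the 8 arrays. The profiles hold the difference between the groups, so this is a description and not a test. Nearest to Gfi1 were Itga6, the integrin alpha 6 subunit (0.0718 log2 units), Mfhas1 (0.134) and Prep, a prolyl endopeptidase gene (0.14). Itga6 read 641 ± 156 on deficient and 1390 ± 175 on sufficient arrays (SD, n = 4 each; log2 -1.12). Nearest to Ets1 by 1426725_s_at were Cbr1, a carbonyl reductase gene (0.0552), Tmem120b (0.0609) and the NuRD subunit gene Mta2 (0.0658). Nearest to Elf1 by 1417540_at were Gm13012 (0.0499), Cmtm7 (0.0639) and Mfsd6 (0.0639).

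Relatives and cofactors of these factors were read on the brightest tested probe set of each gene; over all 9941 genes, 3.08% were called lower and 4.16% higher that way, with a median difference of 0.02. Of 12 tested other Ets family genes 1 fell, 0 rose and 11 did not pass, with a median of 0.07. The fall was that of Elf4, a close relative of Elf1 that restrains T-cell proliferation in mice. Elf4 read 85.0, 83.6, 69.8 and 88.9 on deficient and 145.8, 125.1, 151.0 and 126.8 on sufficient arrays (log2 -0.65 ± 0.14, SE, adjusted p = 0.0211), and its second probe set was also called lower (-0.82). The groups were apart, but the call was lost without deficient replicate 1, 2 or 3 and without sufficient replicate 1 or 3 (adjusted p up to 0.0828). Of the other Ikaros family genes, Ikzf5 differed by -0.01 and Ikzf4 was too dim to test.

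Of 13 NuRD subunit genes 1 rose and 1 fell, with a median of 0.03. Chd3, a remodelling ATPase, read 345.7, 393.4, 584.4 and 368.2 on deficient and 268.4, 255.6, 182.4 and 174.2 on sufficient arrays (log2 0.89 ± 0.19, SE, adjusted p = 0.0233). Mta2, a scaffold subunit, read 1188.9, 1295.1, 1108.7 and 1215.7 on deficient and 1582.2, 1489.3, 1625.3 and 1578.1 on sufficient arrays (log2 -0.38 ± 0.08, SE, adjusted p = 0.0197). Both pairs of groups were apart, and each call was lost in 4 of the 8 fits without 1 array, namely deficient replicates 2 and 3 and sufficient replicates 3 and 4 for Chd3 (adjusted p up to 0.0828), and deficient replicates 1 and 3 and sufficient replicates 1 and 3 for Mta2 (adjusted p up to 0.081). Of 7 tested corepressor genes of Gfi1, none passed in limma, although 1 had an unadjusted p under 0.05 in each direction. Their brightest member, the demethylase gene Kdm1a, read 1950 ± 97.6 on deficient and 2228 ± 118 on sufficient arrays (SD, n = 4 each; log2 -0.19, adjusted p = 0.17). Zmynd8 differed by more and in the other direction (log2 0.81, adjusted p = 0.0545). Of 3 tested Runx and Cbfb genes none passed in limma, again with 1 unadjusted p under 0.05 in each direction. Cbfb, the shared partner of Runx proteins, read 3954 ± 389 on deficient and 4682 ± 92.9 on sufficient arrays (SD, n = 4 each; log2 -0.25, adjusted p = 0.0886), and it passed without deficient replicate 4 (-0.30, adjusted p = 0.0336).

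Among genes reported in the literature as repressed by these factors, 3 rose and 0 fell. Over all 9941 genes 4.16% were called higher and 3.08% lower. The lists were chosen with earlier results of these data known, so the count is a description and not a test. Of 6 tested genes of the Gfi1 list 1 rose and 5 did not pass, with a median of 0.38. By an unadjusted limma p under 0.05, 2 of them were higher and 1, Id1, was lower (log2 -0.53). The riser was Socs3, an inhibitor of cytokine signalling, at 2602.6, 2504.7, 3169.7 and 2318.9 on deficient and 1244.9, 1106.9, 478.3 and 359.8 on sufficient arrays (log2 1.89 ± 0.34, SE, adjusted p = 0.00974). Of 6 tested genes of the Bcl11b list 0 passed in limma, with 1 at an unadjusted p under 0.05, and the brightest, Id2, differed by 0.24. Of 7 tested Notch target genes of the Ikaros list 2 rose and 5 did not pass, with a median of 0.65. Il2ra, the interleukin-2 receptor alpha chain, read 603.9, 736.7, 1101.9 and 570.1 on deficient and 78.2, 192.6, 30.6 and 31.0 on sufficient arrays (log2 3.20 ± 0.43, SE, adjusted p = 0.00214). Dtx1, the Deltex regulator of Notch, read 618.5, 891.0, 1667.7 and 436.3 on deficient and 154.0, 142.4, 70.9 and 59.8 on sufficient arrays (log2 2.82 ± 0.39, SE, adjusted p = 0.00236), while its other probe set differed by -0.08. A model that holds the Xist level lost all 3 calls, with 1.07 for Socs3 (adjusted p = 0.592), 2.98 for Il2ra (adjusted p = 0.208) and 2.26 for Dtx1 (adjusted p = 0.258). For these 3 risers the groups were apart, sufficient replicates 1 and 2 read above sufficient replicates 3 and 4, and deficient replicate 3 was the highest array.

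**Figure D5:**
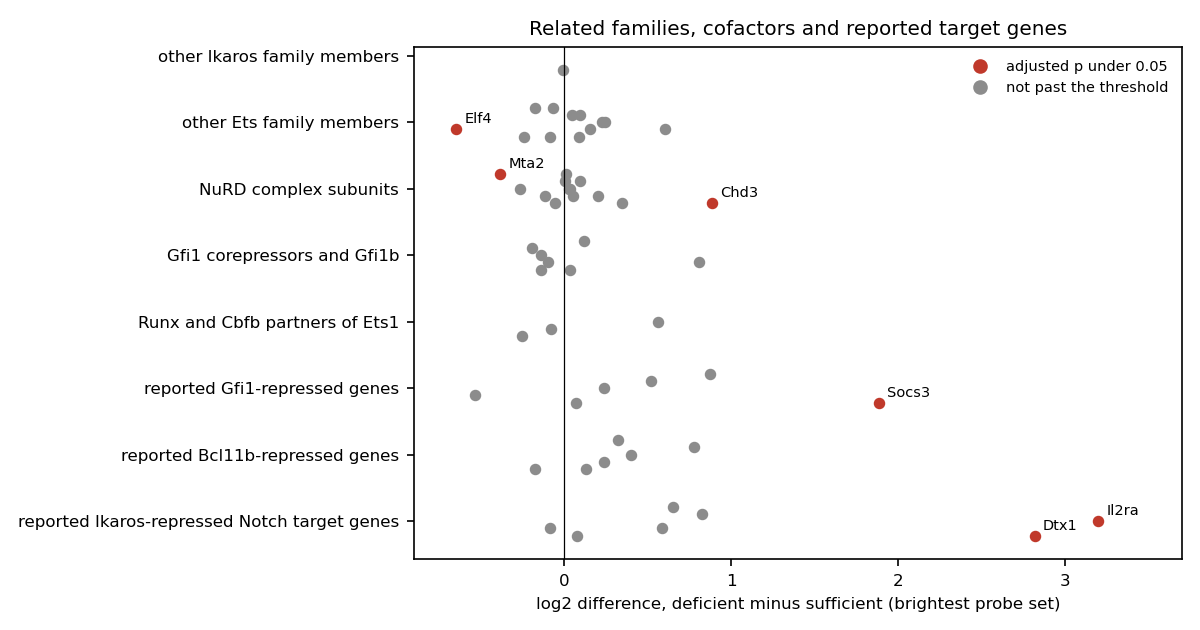
Log2 difference, deficient minus sufficient (x axis), of the brightest probe set of each tested gene in 8 lists (y axis) of related families, cofactors and reported target genes; red and named genes have an adjusted p under 0.05. Elf4 and Mta2 lie below 0 and Chd3, Socs3, Dtx1 and Il2ra above it, while all grey points lie within 1 log2 unit of 0.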

How the data were processed

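RNA of 8 mice was measured on 8 one-colour Affymetrix arrays. The deposited table holds 1 linear intensity per probe set and array, which the authors made with GCOS, per the submitters' processing notes. The sources used here do not give the GCOS release. The 2% trimmed mean was 250 on each array, so the arrays had been scaled to a common level, which removes any difference in total RNA. Detection calls and batches were not used here. The number of arrays limits the precision. The labels call the arrays biological replicates.

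Intensities were converted to log2(signal + 16), which understates changes of dim genes. A probe set was tested if 4 or more arrays read above the dim limit of 33.8, which is the median deposited signal (22599 of 45101, with 64 controls left out). Genes were named from the platform annotation (34945 probe sets with 1 symbol, 932 with several, 9160 with none), updated through RefSeq for the lists. limma 3.58.1 in R 4.3.3 (lmFit, eBayes with variance trend, two-sided) gave all adjusted p-values by Benjamini-Hochberg over all tested probe sets, unless an exact permutation test is named; the method was tested on simulated data. Python 3.11.15, SciPy 1.17.1 and matplotlib 3.10.9 made tables and plots.

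The members, lists, alternatives and naming rule were chosen with earlier results of these data known. The rule named all members, up to 2 called genes of each list with the largest change (otherwise the brightest), and the 3 genes most like each called member. The results were recomputed with other normalizations (quantile, 75th percentile), pseudocounts of 1 and 64, other filters and probe set choices, other variance models, weights for each array, a block for the replicate number, the Xist level (high or low at a signal of 1000) as a covariate, a threshold of 0.01, and without each array in turn.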

Additional observations from a re-analysis of the deposited data

Results flagged for a closer look

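Each of the 21 tested member probe sets has 2 groups of 4 signals, 42 in all, and in 4 of these 1 signal was set well apart from its group; about 1 in 20 would be by chance. Deficient replicate 4 was that array in 3 of the 4: Bcl11b 1438784_at read 1502.5 there against 2308 to 2394, Ets2 1447685_x_at 1243.8 against 1138.5 to 1155.8, and Fli1 1422024_at 875.3 against 1054.9 to 1061.0. Sufficient replicate 4 read 144.3 for Ikzf2 1456956_at, against 173.3 to 174.0 in the other sufficient arrays.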

How the results depend on the processing

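The 5 lower probe sets of Gfi1, Ets1 and Elf1 kept a negative difference under every alternative in which they were tested. The number of lower calls among all tested member probe sets, 5 as reported, was 3 with no dim filter and 3 with the replicate block, 2 with the brightest probe set of each gene, 2 without _x_at, _s_at and _a_at probe sets and 2 without a variance trend, 1 at an adjusted p under 0.01, 0 with the Xist level, 4 with scaling to the 75th percentile, and 2 to 6 when each array was left out. It was 7 with array weights, which added Ikzf2 1437542_at and Ets1 1452163_at; the 6 without deficient replicate 4 also hold Ets1 1452163_at. The labels do not say whether same-numbered arrays shared a litter or a preparation. Deviations of same-numbered arrays correlated at -0.37 to 0.33, which cannot decide it, so the block pairs arrays by number only.

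Over all tested probe sets the higher calls numbered 429 without _x_at, _s_at and _a_at probe sets, 1494 with array weights, 6 with the Xist level, 222 at an adjusted p under 0.01 and 269 to 808 without single arrays. The lower calls numbered 1137, 2 and 205 with array weights, the Xist level and the stricter threshold, and 267 to 685 without single arrays. Called genes of the related lists, 6 as reported, were 3 without _x_at, _s_at and _a_at probe sets, 13 with array weights, 0 with the Xist level, 3 at the stricter threshold and 3 to 11 without single arrays. Fewer probe sets or arrays enter some of these fits, and the cause of the other shifts was not tested.

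No sign reversal was of a called value. Among the 16 uncalled member probe sets, 318 of 341 values kept sign and call, 20 reversed in 8 probe sets, and 3 became called. With array weights Ikzf2 1456956_at turned to 0.072 and Elf1 1439319_at to 0.062. With the Xist level Bcl11b 1450339_a_at turned to -0.15, Ets2 1416268_at to -0.062, Fli1 1433512_at to 0.15 and Ikzf5 to 0.084. Quantile normalization turned Fli1 1433512_at to 0.0082 and Ikzf5 to 0.0004. Without single arrays the ranges that crossed 0 were -0.14 to 0.10 for Ikzf2 1456956_at, -0.11 to 0.32 for Ikzf3 1441088_at, -0.024 to 0.091 for Bcl11b 1435227_at, -0.25 to 0.013 for 1438784_at, -0.061 to 0.082 for 1450339_a_at, -0.25 to 0.070 for Elf1 1439319_at, -0.054 to 0.058 for Fli1 1433512_at and -0.092 to 0.052 for Ikzf5. Signal limits the 10 dim probe sets, for which no difference is given.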
